A study of Mus musculus with 10 samples.

Results

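The genes of the cell cycle were examined in MC3T3-E1 cells, a mouse line of osteoblast precursors from calvaria, cultured with the plant steroid β-ecdysterone. They were chosen from the deposited table by their KEGG annotation, as Ensembl genes of the cell cycle pathway that are not also in the DNA replication pathway and whose name does not start with Smad. Of the 29583 rows of the table, 22036 were Ensembl genes and 123 met this rule. Messenger RNA was sequenced from third-generation cells in standard medium with 0 μM β-ecdysterone (2 libraries, days 5 and 10) or with 100, 150 or 200 μM (6 libraries, 1 for each dose on each day). A further 2 libraries, named A-5 and B-4, came from untreated cells, and their labels give no time. The labels name the strain as C57BL/6, the age as newborn and the source as marrow mesenchymal stem cells, while the titles name MC3T3-E1. The 6 treated libraries served as the treated group, so the spread within it holds dose, day and any technical difference, and p-values measure only the spread between these libraries.

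The cell cycle runs from growth (G1) through DNA synthesis (S) and a second gap (G2) to mitosis. Cyclins switch on the cyclin-dependent kinases (CDKs): D cyclins with Cdk4 and Cdk6 act in G1, E cyclins with Cdk2 at the entry into S phase, and A and B cyclins with Cdk1 at mitosis. CDK inhibitors hold these kinases back, and the retinoblastoma proteins hold back the E2F factors that switch on the genes of DNA synthesis. Osteoblast precursors divide before they mature, and many cell cycle genes are transcribed mainly in dividing cells. In a bulk library, fewer dividing cells and less RNA per cell cannot be told apart.

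Promoters of genes that fell together are shown first, with that of Ccnd3, which rose, beside them. The RefSeq table (GRCm38.p6) held a promoter window for 97 of the 123 genes. Each line gives the 250 bases before the start of the gene on its own strand, for Ccnb2 (chr9:70421555-70421804, minus strand), Cdk1 (chr10:69352913-69353162, minus), Cdc20 (chr4:118437344-118437593, minus), Espl1 (chr15:102296043-102296292, plus), Cdk2 (chr10:128705052-128705301, minus) and Ccnd3 (chr17:47504801-47505050, plus). These 6 were picked after their values and motifs were seen. Starts are those of RefSeq. By the GENCODE M21 annotation, the last 26 bases of the Cdk1 window, 9 of the Cdc20 window and 27 of the Espl1 window lie within the gene. Capitals mark the cell cycle homology region TTTGAA, the CCAAT box, and 4 forms of the E2F motif, on either strand. These forms are TTCCCGC with 3 further ones that differ in the middle, written TTCGCGC, or else TTGCCGC, or finally TTGGCGC. An E2F match can share bases with a CCAAT match.
Ccnb2: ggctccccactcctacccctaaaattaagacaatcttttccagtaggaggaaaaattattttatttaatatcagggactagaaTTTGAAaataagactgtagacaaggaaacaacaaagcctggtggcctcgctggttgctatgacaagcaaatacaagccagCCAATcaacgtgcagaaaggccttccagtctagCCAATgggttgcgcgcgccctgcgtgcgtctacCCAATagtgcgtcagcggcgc
Cdk1: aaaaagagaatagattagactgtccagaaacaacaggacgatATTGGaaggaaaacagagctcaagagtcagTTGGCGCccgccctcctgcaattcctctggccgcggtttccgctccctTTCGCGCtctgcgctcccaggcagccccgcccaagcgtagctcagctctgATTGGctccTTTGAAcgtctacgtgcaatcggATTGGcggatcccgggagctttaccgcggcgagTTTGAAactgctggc
Cdc20: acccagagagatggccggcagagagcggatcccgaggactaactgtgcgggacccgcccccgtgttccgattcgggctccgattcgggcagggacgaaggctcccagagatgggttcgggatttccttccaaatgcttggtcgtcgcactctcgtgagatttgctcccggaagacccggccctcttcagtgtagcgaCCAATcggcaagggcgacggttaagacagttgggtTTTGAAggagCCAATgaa
Espl1: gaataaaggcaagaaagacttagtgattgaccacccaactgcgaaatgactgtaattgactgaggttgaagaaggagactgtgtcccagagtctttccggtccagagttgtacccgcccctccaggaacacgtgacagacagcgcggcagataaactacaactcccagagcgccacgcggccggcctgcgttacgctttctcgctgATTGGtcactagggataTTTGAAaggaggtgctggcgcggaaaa
Cdk2: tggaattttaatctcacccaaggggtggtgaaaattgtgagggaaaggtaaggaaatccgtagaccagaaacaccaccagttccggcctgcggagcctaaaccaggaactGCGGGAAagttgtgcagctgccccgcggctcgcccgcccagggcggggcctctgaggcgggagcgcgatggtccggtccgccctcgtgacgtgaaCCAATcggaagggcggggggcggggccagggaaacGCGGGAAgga
Ccnd3: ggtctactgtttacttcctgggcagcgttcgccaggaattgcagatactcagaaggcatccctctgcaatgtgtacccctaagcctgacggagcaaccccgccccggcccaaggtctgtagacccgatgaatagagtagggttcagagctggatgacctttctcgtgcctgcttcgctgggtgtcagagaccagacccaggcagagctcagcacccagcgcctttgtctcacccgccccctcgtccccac

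In Cdk1 the window held TTTGAA at 71 and 15 bases before the start, CCAAT boxes at 208, 80 and 48 bases and E2F motifs at 178 and 130 bases. In Cdc20 and Espl1 a CCAAT box stood upstream of TTTGAA, at 53 and 18 bases in Cdc20 and at 44 and 27 bases in Espl1. Cdc20 held a further CCAAT box at 8 bases. Ccnb2 held 3 CCAAT boxes, at 87, 54 and 21 bases, with TTTGAA farther out at 167 bases, and Cdk2 held E2F motifs at 140 and 10 bases with a CCAAT box at 45 bases. Ccnd3 has 2 windows in the RefSeq table, and the first, shown here, held none of these letters. The other is not described here. For the 22 cell cycle genes with more than 1 window, the first was taken. Taking 1 window a gene, a CCAAT box was found in 34.5% of the 27025 genes of the RefSeq table, in 44.3% of the 97 cell cycle genes and in 16 of the 20 genes with a window that fell more than 2-fold under treatment (80.0%). Among the cell cycle genes tested but not called, it was found in 11 of 33 (33.3%). Genes with a window that fell less than 2-fold held a CCAAT box in 10 of 25 cases. Those that rose more than 2-fold held it in 2 of 4 cases, and those that rose less, Ccnd3 among them, in 1 of 5. The window of Ccnd3 thus does not stand for all genes that rose. TTTGAA was found in 16.3% of all genes and in 4 of the 20 genes that fell more than 2-fold. An E2F motif was found in 7.97% of all genes, in 5 of those 20 and in 8 of 26 G1/S genes. Of the 4 genes that rose more than 2-fold, 1 held an E2F motif and 0 held TTTGAA. Of the 5 that rose less, 0 held an E2F motif and 1 held TTTGAA. A match describes the letters of a window and is not a bound site.

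Cell cycle genes fell more often than they rose in cells treated with β-ecdysterone. Among the role lists, mitotic entry and the spindle checkpoint had the lowest median, at -1.49 on the log2 scale. The cyclins followed at -0.74 and the CDKs at -0.42, while the G1/S list was at -0.30. The other mitotic lists were nearer to the G1/S list, with cohesin and separation at -0.32 and the anaphase-promoting complex at -0.22. All 3 mitotic lists together had a median of -0.42. Of the 123 genes, 111 had enough counts to be tested and 12 did not. A gene was called at an adjusted p under 0.05, and set apart where it also changed more than 2-fold. By both limits, 23 of the 111 fell and 4 rose, while 5.98% and 13.4% of all 16794 genes tested did so. By adjusted p alone 55 fell, 12 rose and 44 were not called, against 20.8% and 22.6% of all genes. These shares of all genes also stand beside the counts of each gene list below. All 6 treated libraries lay below both 0 μM libraries for 60 of the 111 genes, against 25.2% of all genes, and above both for 15, against 27.5%. The median log2 fold change of the 111 genes was -0.29, beside 0.05 over all genes.

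**Figure D1:**
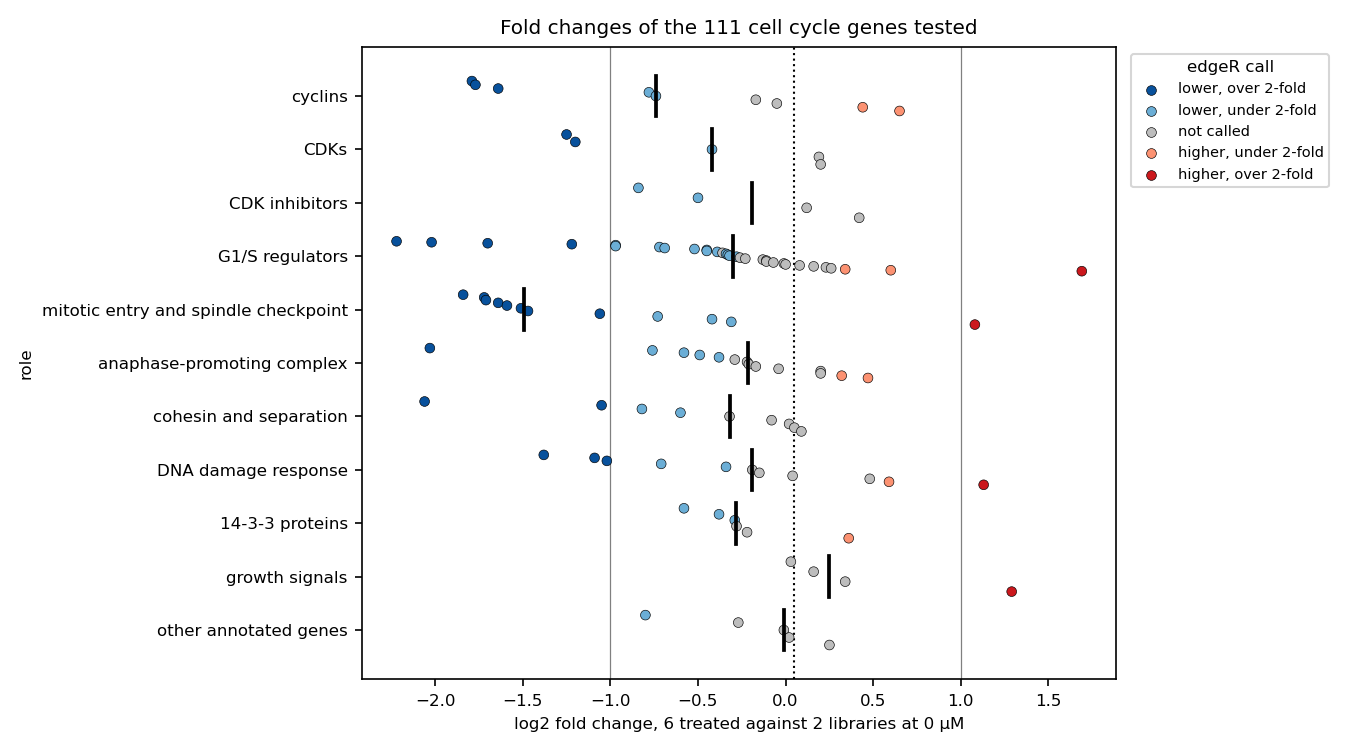
Log2 fold change of each of the 111 cell cycle genes tested (x axis), treated against 0 μM, by role (y axis). Points are genes, black bars the median of each role, the dotted line the median of all genes (0.05) and the grey lines a 2-fold change. The genes of mitotic entry and the spindle checkpoint have a median of -1.49, and a single one of them, Mad2l2, lies to the right of 0.

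The cyclins split by phase. The mitotic cyclins Ccnb2, Ccnb1 and Ccna2 fell, the E cyclins fell less, Ccnd1 was not called, and Ccnd2 and Ccnd3 rose. Of the 11 cyclins 9 were tested, 5 fell (3 of them more than 2-fold) and 2 rose. Per length, on the FPKM scale at 0 μM, Ccnd1 was the most abundant (153 and 169 FPKM), followed by Ccna2 (72.3 and 76.2 FPKM) and Ccnd2 (69.4 and 78.0 FPKM), which overlapped, then by Ccnd3 (40.7 and 44.1 FPKM), Ccnb2 (32.6 and 36.9 FPKM) and Ccnb1 (31.0 and 31.5 FPKM). In treated cells the level of Ccna2 was 23.9 ± 7.47 FPKM (SD, n = 6), below that of Ccnd3 at 67.9 ± 10.3 FPKM.

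Ccna2 (ENSMUSG00000027715), which drives S phase and the entry into mitosis, stood at 234 and 248 CPM (counts scaled to a common library size) at 0 μM on days 5 and 10. With 100, 150 and 200 μM it stood at 76.0, 114 and 98.8 CPM on day 5 and at 56.8, 63.8 and 71.4 CPM on day 10. All treated libraries were thus lower than both at 0 μM, with a log2 fold change of -1.64 ± 0.17 (SE, adjusted p = 5.8e-05). Ccnb1 (ENSMUSG00000041431), the main partner of Cdk1 at mitosis, was at 79.8 and 85.0 CPM at 0 μM, and between 18.1 and 40.7 CPM (median 20.7) in treated cells, with the 3 libraries of day 10 at 18.2, 18.1 and 21.4 CPM. Its log2 fold change was -1.77 ± 0.23 (adjusted p = 0.00024), and the groups did not overlap. Ccnb2, the second B cyclin, was at 54.8 and 62.1 CPM at 0 μM and between 10.1 and 26.5 CPM (median 17.8) in treated cells, a fall by 1.79 ± 0.22 on the log2 scale (adjusted p = 0.00018).

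The E cyclins start DNA synthesis with Cdk2. Ccne1 was at 24.8 and 22.4 CPM at 0 μM and between 11.3 and 16.3 CPM (median 14.9) in treated cells. Its log2 fold change of -0.74 ± 0.15 passed the test (adjusted p = 0.0035), but not when 0 μM of day 5 was left out (adjusted p = 0.051). For Ccne2 the levels were 21.6 and 19.9 CPM at 0 μM and 8.55 to 17.3 CPM (median 11.2) after treatment, with a log2 fold change of -0.78 ± 0.25 (adjusted p = 0.028). This call was lost without 0 μM of day 5 or day 10 (adjusted p = 0.10 and 0.18), without 200 μM of day 5 or day 10 (0.050 and 0.056) and against a 1.2-fold change (0.061).

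Among the D cyclins, which sense growth signals in G1, Ccnd1 overlapped between the groups, with 694 and 630 CPM at 0 μM and 494 to 755 CPM (median 644) in treated cells. Its log2 fold change of -0.05 ± 0.14 was not called (adjusted p = 0.80). Ccnd2 was at 528 and 472 CPM at 0 μM, at 578, 693 and 623 CPM on day 5 of treatment and at 683, 766 and 770 CPM on day 10. It rose by 0.44 ± 0.12 on the log2 scale (adjusted p = 0.018). Ccnd3 was at 89.2 and 85.6 CPM at 0 μM, at 117, 133 and 142 CPM on day 5 and at 120, 154 and 161 CPM on day 10, a log2 fold change of 0.65 ± 0.13 (adjusted p = 0.0035). Every treated library was above both at 0 μM for Ccnd2 and Ccnd3. Neither passed the test when the day 10 library at 0 μM was left out (adjusted p = 0.30 and 0.073).

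Ccnh, which activates Cdk7, had a log2 fold change of -0.17 ± 0.15 (adjusted p = 0.38). Ccna1 and Ccnb3, cyclins of germ cells, were not tested: Ccna1 had 0 counts in all 10 libraries, which allows up to 0.0502 to 0.118 CPM (3 counts), and Ccnb3 had at most 17 counts.

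**Figure D2:**
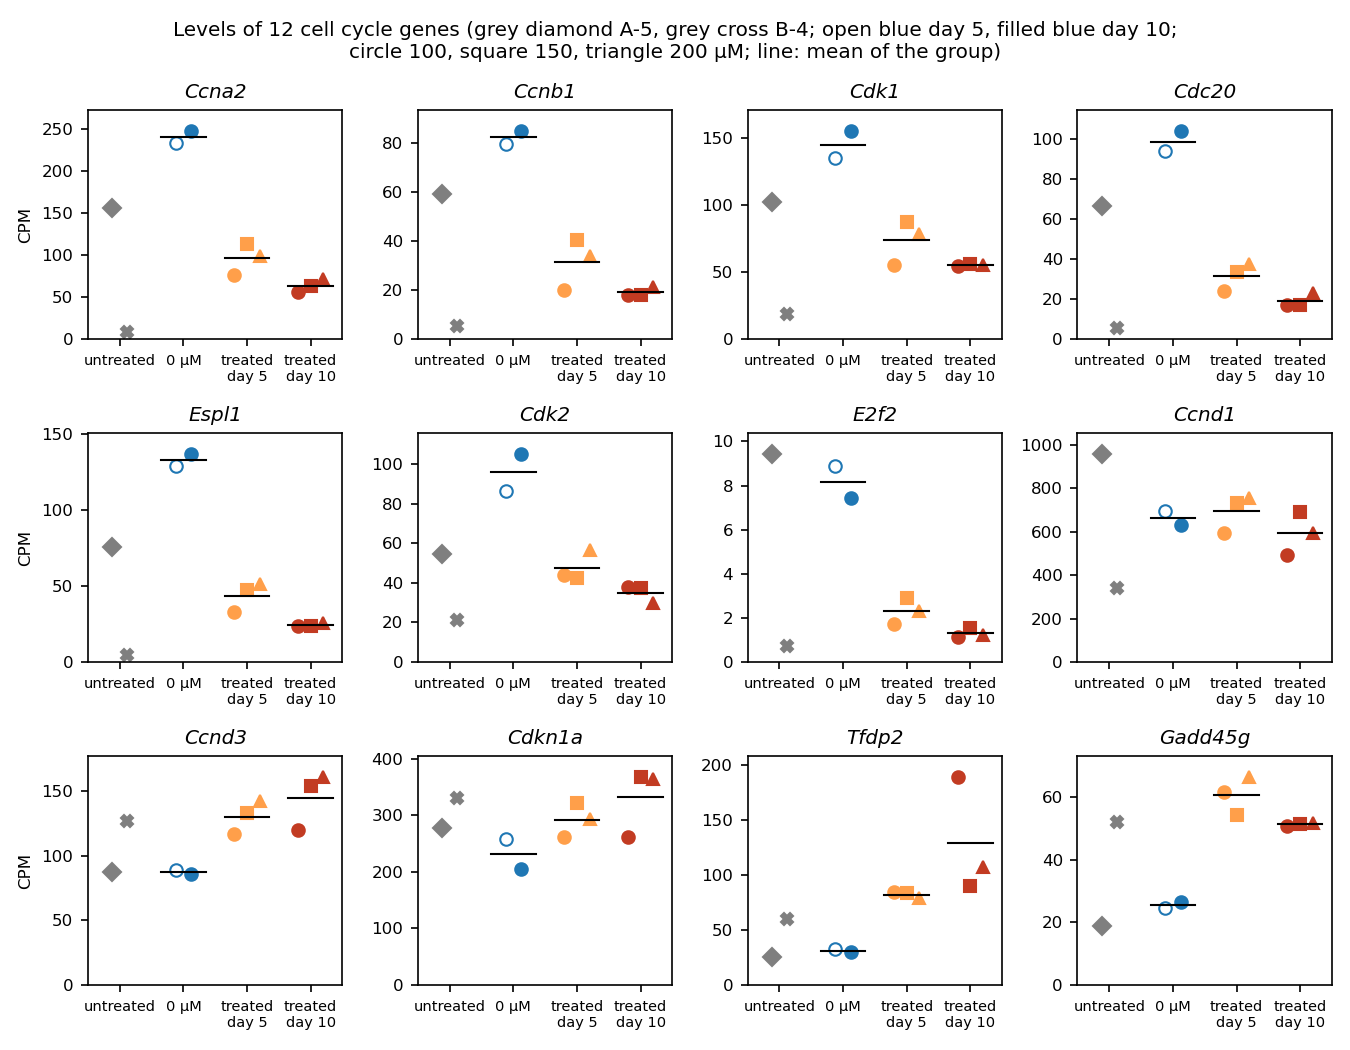
CPM (y axis, from 0) of 12 cell cycle genes in the 10 libraries, by group (x axis): untreated, 0 μM, treated on day 5 and treated on day 10. Points are libraries, with symbols for the dose, and lines are group means. The genes from Ccna2 to E2f2 lie lower in all 6 treated libraries than at 0 μM, Ccnd1 overlaps, and Ccnd3, Tfdp2 and Gadd45g lie higher.

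The CDKs followed their cyclins in part. Cdk1, the mitotic kinase, was at 135 and 155 CPM at 0 μM, at 55.2, 87.3 and 78.6 CPM on day 5 of treatment and at 54.8, 56.3 and 55.5 CPM on day 10. Its log2 fold change was -1.20 ± 0.16 (adjusted p = 0.00033). Cdk2, the kinase of S phase, was at 86.2 and 105 CPM at 0 μM and between 29.7 and 56.6 CPM (median 40.3) in treated cells, a log2 fold change of -1.25 ± 0.17 (adjusted p = 0.00028). Neither gene overlapped between the groups. Cdk4 fell less, from 327 and 388 CPM to between 245 and 307 CPM (median 264), with a log2 fold change of -0.42 ± 0.11 (adjusted p = 0.011). It was not called when 0 μM of day 10 was left out (adjusted p = 0.29) or against a 1.2-fold change (adjusted p = 0.086). Cdk6, the other G1 kinase, and Cdk7, which activates the rest, were not called by edgeR, with log2 fold changes of 0.20 ± 0.08 (adjusted p = 0.060) and 0.19 ± 0.15 (adjusted p = 0.34). DESeq2 called Cdk6 (adjusted p = 0.038).

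No CDK inhibitor rose by edgeR. Of the 7, 4 were tested and 2 fell. Cdkn2d (p19INK4d), an inhibitor of Cdk4 and Cdk6, was at 18.4 and 17.6 CPM at 0 μM and between 8.19 and 12.5 CPM (median 9.72) in treated cells, a log2 fold change of -0.84 ± 0.17 (adjusted p = 0.0027). Cdkn2c (p18INK4c), of the same family, was at 89.5 and 84.6 CPM and then between 50.2 and 68.5 CPM (median 64.7), a log2 fold change of -0.50 ± 0.09 (adjusted p = 0.0019). Without 0 μM of day 10 neither was called (adjusted p = 0.052 for each).

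Cdkn1a (p21), which p53 switches on, was at 258 and 205 CPM at 0 μM, at 261, 321 and 294 CPM on day 5 of treatment and at 262, 368 and 365 CPM on day 10. Although all treated values were above both at 0 μM, its log2 fold change of 0.42 ± 0.17 missed the limit (adjusted p = 0.067), and DESeq2 gave an adjusted p of 0.030. With 1 library left out in turn its adjusted p ran from 0.034, without 0 μM of day 5, to 0.62, without 0 μM of day 10. Cdkn1b (p27), which accumulates in resting cells, was at 125 and 122 CPM and then between 113 and 160 CPM (median 133), with a log2 fold change of 0.12 ± 0.13 (adjusted p = 0.46). Cdkn1c had at most 12 counts, and Cdkn2a (p16 and p19ARF) and Cdkn2b (p15) had 0 counts in all 10 libraries.

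Of the 32 genes of the G1/S list, all tested, 16 fell (4 more than 2-fold), 3 rose (1 more than 2-fold) and 13 were not called, with a median log2 fold change of -0.30. The falls included genes that license or fire replication origins. Orc1, the largest subunit of the origin recognition complex, was at 17.8 and 20.6 CPM at 0 μM and between 3.89 and 5.59 CPM (median 4.85) in treated cells, a log2 fold change of -2.02 ± 0.15 (adjusted p = 1.1e-05). Cdc6, which loads the replicative helicase, was at 27.2 and 29.0 CPM and then between 6.27 and 12.6 CPM (median 7.61), a log2 fold change of -1.70 ± 0.21 (adjusted p = 0.00018). The other subunits did not follow Orc1: Orc6 fell by 0.32 ± 0.10 on the log2 scale (adjusted p = 0.025), and Orc2, Orc3, Orc4 and Orc5 had log2 fold changes from -0.13 to 0.08 and were not called. Dbf4, which activates the kinase Cdc7 at origins, fell by 1.22 ± 0.17 on the log2 scale (adjusted p = 0.00043), and Cdc7 itself by 0.72 ± 0.16 (adjusted p = 0.0044).

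The E2F factors, which switch on genes of DNA synthesis, and their partners moved in different directions. E2f2 (ENSMUSG00000018983) had the largest fall of the cell cycle genes, from 8.87 and 7.43 CPM at 0 μM to 1.74, 2.90 and 2.31 CPM on day 5 and 1.14, 1.54 and 1.23 CPM on day 10, a log2 fold change of -2.22 ± 0.22 (adjusted p = 5.5e-05). E2f1 was at 60.8 and 63.2 CPM and then between 28.1 and 36.7 CPM (median 31.6), a log2 fold change of -0.97 ± 0.10 (adjusted p = 8.2e-05). E2f4, a factor that mainly represses, fell by 0.45 ± 0.09 (adjusted p = 0.0036), and E2f3 and E2f5 were not called (adjusted p = 0.085 and 0.48).

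Tfdp2, a DNA-binding partner of the E2F factors, had the largest rise: it was at 32.5 and 29.7 CPM at 0 μM, at 84.2, 83.6 and 78.8 CPM on day 5 and at 189, 89.8 and 107 CPM on day 10. Its log2 fold change was 1.69 ± 0.29 (adjusted p = 0.0012). The other partner, Tfdp1, went the opposite way, by -0.39 ± 0.09 on the log2 scale (adjusted p = 0.0076). Of the retinoblastoma family, Rbl1 fell by 0.69 ± 0.13 (adjusted p = 0.0024), Rbl2 rose by 0.34 ± 0.10 (adjusted p = 0.021) and Rb1 was not called, at 0.26 ± 0.17 (adjusted p = 0.26). Myc, a growth factor response gene, rose by 0.60 ± 0.13 on the log2 scale (adjusted p = 0.0050).

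**Figure D3:**
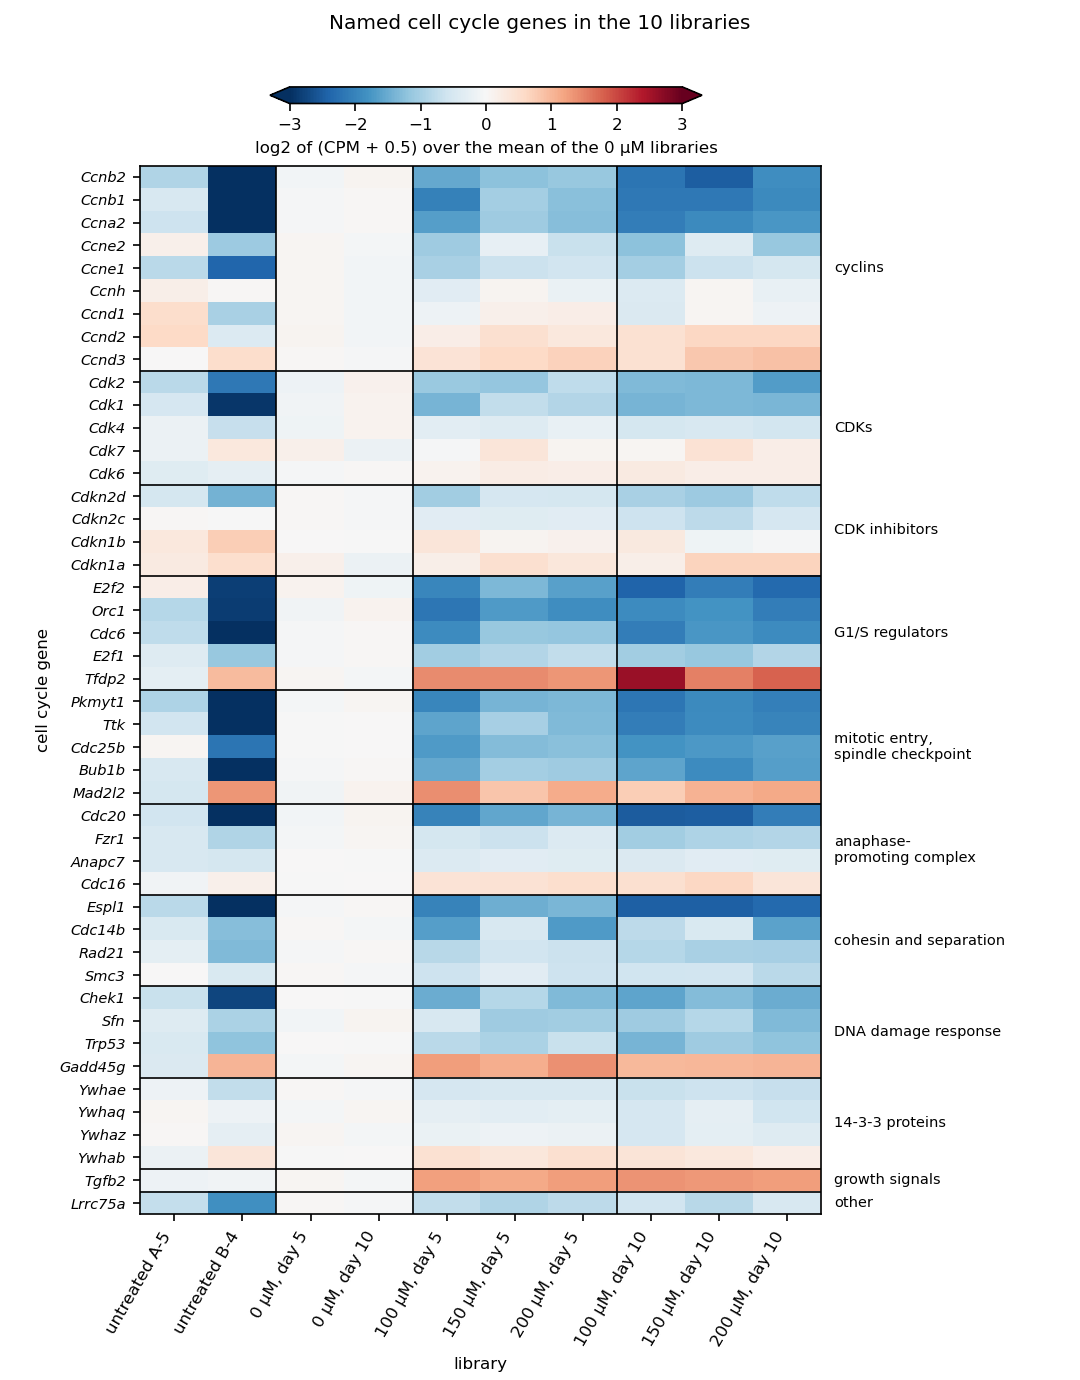
Heat map of the 46 named cell cycle genes that were tested (rows, by role) in the 10 libraries (columns). Colour is the log2 of CPM plus 0.5 over the mean of the 0 μM libraries, and values beyond -3 or 3 take the end colour. Blue marks lower levels, which treated cells and, deeper still, untreated B-4 show for the cyclins of mitosis, E2f2, Orc1, Cdc6 and Ttk, while Tfdp2, Mad2l2, Gadd45g and Tgfb2 are red in treated cells.

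Genes of mitotic entry and the spindle checkpoint had the largest share of falls among the role lists. Of 13 genes 12 were tested, 11 fell (8 of them more than 2-fold) and 1 rose, and the median log2 fold change was -1.49. Their summed level was 718 and 770 CPM at 0 μM, 342 to 447 CPM on day 5 of treatment and 305 to 319 CPM on day 10. Pkmyt1, a kinase that restrains Cdk1, was at 47.0 and 51.3 CPM at 0 μM and between 10.5 and 19.0 CPM (median 12.5) in treated cells, a log2 fold change of -1.84 ± 0.18 (adjusted p = 4e-05). Cdc25b, a phosphatase that opposes it, was at 74.6 and 76.0 CPM and then between 21.4 and 31.1 CPM (median 23.4), a log2 fold change of -1.59 ± 0.12 (adjusted p = 1.2e-05). Genes that restrain Cdk1 and genes that release it thus both fell.

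At the spindle checkpoint, which delays anaphase until chromosomes are attached, the kinase Ttk was at 27.2 and 27.8 CPM at 0 μM and between 6.19 and 13.5 CPM (median 7.96) in treated cells. Its log2 fold change was -1.71 ± 0.18 (adjusted p = 8.1e-05). Bub1b was at 131 and 139 CPM and then between 36.2 and 66.6 CPM (median 45.3), a log2 fold change of -1.47 ± 0.16 (adjusted p = 8.5e-05). Cdc25c, Bub1, Plk1 and Mad2l1 fell too, with log2 fold changes of -1.72, -1.64, -1.51 and -1.06, and Mad1l1, Wee1 and Bub3 by less than 2-fold. The exception was Mad2l2, a relative of Mad2l1 that also takes part in DNA repair: it was at 9.57 and 11.1 CPM at 0 μM and between 17.4 and 28.0 CPM (median 22.4) in treated cells, a log2 fold change of 1.08 ± 0.18 (adjusted p = 0.0012).

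Of the 14 genes of the anaphase-promoting complex, the ubiquitin ligase that ends mitosis, both activators fell and 7 core subunits were not called. Cdc20, the mitotic activator, was at 94.0 and 104 CPM at 0 μM, at 24.2, 33.4 and 37.5 CPM on day 5 of treatment and at 17.0, 17.3 and 23.1 CPM on day 10, a log2 fold change of -2.03 ± 0.20 (adjusted p = 4.9e-05). Fzr1, the activator of late mitosis and G1, was at 86.6 and 93.4 CPM and then between 43.5 and 67.2 CPM (median 53.3), a log2 fold change of -0.76 ± 0.12 (adjusted p = 0.00069). Of the 14, 5 fell, 2 rose and 7 were not called. The core subunit Anapc7 fell by 0.38 ± 0.07 (adjusted p = 0.0022) and Cdc16 rose by 0.47 ± 0.09 on the log2 scale (adjusted p = 0.0022).

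Cohesin holds sister chromatids together until separase cuts it. Espl1, separase itself, was at 129 and 137 CPM at 0 μM, at 32.8, 47.6 and 51.1 CPM on day 5 of treatment and at 23.8, 24.1 and 25.8 CPM on day 10, a log2 fold change of -2.06 ± 0.19 (adjusted p = 3.5e-05). Pttg1, its inhibitor securin, was not called, at 0.02 ± 0.14 (adjusted p = 0.94). The cohesin subunits Rad21 and Smc3 fell by 0.82 ± 0.10 (adjusted p = 0.00018) and 0.60 ± 0.10 (adjusted p = 0.0013), while Stag1 and Stag2 were not called. Cdc14b, a phosphatase, fell by 1.05 ± 0.35 on the log2 scale (adjusted p = 0.032), with treated values from 8.09 to 19.7 CPM, and DESeq2 did not call it (adjusted p = 0.066). Its adjusted p ran from 0.0077 to 0.22 with 1 library left out, and missed the limit without either 0 μM library and without 100 or 200 μM of day 5. Of the 10 genes in this list 9 were tested, 4 fell and none rose.

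In the DNA damage response, 5 of 11 genes fell and 2 rose, beside 20.8% and 22.6% of all genes by adjusted p. Chek1, the checkpoint kinase of S phase and G2, was at 21.3 and 20.9 CPM at 0 μM and between 6.70 and 11.5 CPM (median 7.66) in treated cells, a log2 fold change of -1.38 ± 0.17 (adjusted p = 0.00016). Trp53, the gene of p53, was at 134 and 133 CPM, then at 76.4, 68.7 and 84.5 CPM on day 5 and 50.7, 63.9 and 58.1 CPM on day 10, a log2 fold change of -1.02 ± 0.12 (adjusted p = 0.00013). Sfn (14-3-3σ), a p53 target, fell by 1.09 ± 0.24 (adjusted p = 0.0048), and did not pass when the day 10 library at 0 μM was left out (adjusted p = 0.085). Gadd45g, a stress-induced growth arrest gene, rose from 24.5 and 26.4 CPM to between 50.8 and 66.5 CPM (median 53.1), a log2 fold change of 1.13 ± 0.11 (adjusted p = 5.9e-05). Its relative Gadd45b rose by 0.59 ± 0.17 (adjusted p = 0.017), and Gadd45a was not called, at 0.48 ± 0.18 (adjusted p = 0.051).

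Among 6 other 14-3-3 genes, adaptors that bind phosphorylated proteins, Ywhae, Ywhaq and Ywhaz fell by 0.58 ± 0.08 (adjusted p = 0.00033), 0.38 ± 0.10 (adjusted p = 0.013) and 0.29 ± 0.09 (adjusted p = 0.025), and Ywhab rose by 0.36 ± 0.10 (adjusted p = 0.013). Ywhaq, Ywhaz and Ywhab were not called without 0 μM of day 10 (adjusted p = 0.22, 0.23 and 0.053), nor Ywhaz and Ywhab without 0 μM of day 5 (0.071 and 0.15). Of 4 growth signal genes, Tgfb2, a growth factor of the TGF-β family, rose from 9.71 and 9.01 CPM to between 21.2 and 24.5 CPM, a log2 fold change of 1.29 ± 0.11 (adjusted p = 1.9e-05), and 3 were not called. The 10 remaining genes carry a cell cycle annotation in the deposited table but fit no role list, such as Lrrc75a, annotated there as a subunit of the anaphase-promoting complex. Of these, 5 were tested and Lrrc75a fell, by 0.80 ± 0.17 on the log2 scale (adjusted p = 0.0046), but not without 0 μM of day 5 (adjusted p = 0.075).

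The 2 untreated libraries differed widely in these genes. A-5 lay above every treated library for 22 of the 23 genes that fell more than 2-fold, and below both 0 μM libraries for 21 of them. B-4 lay below every treated library for 20 of the 23. These genes were picked for being higher at 0 μM than in treated cells, which favours values of A-5 between the groups. The same shares over all genes are not given here. Ccna2 was at 156 CPM in A-5 and 8.95 CPM in B-4, Cdk1 at 102 and 18.7 CPM, Cdc6 at 16.4 and 0.828 CPM, and Cdc20 at 66.4 and 5.76 CPM. B-4 was more than 2-fold below A-5 for 29 of the 111 genes, against 5.79% of all genes tested, and the lowest of the 10 libraries for 46, against 18.5% of all genes. Ccnd1 was at 958 CPM in A-5 and 339 CPM in B-4, while Gadd45g (18.9 and 52.1 CPM) and Mad2l2 (7.03 and 26.4 CPM) were higher in B-4. With 1 library each, these differences have no test. With the untreated libraries in place of those at 0 μM, none of the 23 falls passed the test and the median log2 fold change was -0.02, and with them added to the 0 μM group 5 of the 23 passed. How many of all genes kept a call in these settings is not given here. Whether the loss of calls is particular to cell cycle genes was not tested.

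For 22 of the 23 genes that fell more than 2-fold, the fold change was lower on day 10, with a median of -1.98 against -1.27 on day 5. Each of these folds rests on a single 0 μM library, and in 19 of the 23 genes the 0 μM library of day 10 was above that of day 5. The 23 genes share these 0 μM libraries and were picked by their fall against them, so they are not independent. Shares over all genes are not given here for these counts. Among treated cells alone, all 3 libraries of day 10 lay below all 3 of day 5 for 12 of the 23 and for 28 of the 111 genes (25.2%), against 10.9% of all genes. In the direct comparison of day 10 with day 5, 4 of the 111 genes fell by adjusted p: Espl1 by 0.83 (adjusted p = 0.026), Ccnb2 by 0.88 (adjusted p = 0.037), Fzr1 by 0.41 (adjusted p = 0.049) and Wee1 by 0.42 (adjusted p = 0.049), on the log2 scale. The share was 3.6% of the 111 genes, against 0.718% of all genes. None fell more than 2-fold by edgeR or DESeq2, against 0.144% of all genes tested, although 38 of 111 (34.2%) had an unadjusted p under 0.05, against 18.3% of all genes. One gene, Lrrc75b, rose more than 2-fold (log2 1.06, adjusted p = 0.022), against 0.905% of all genes, and Tgfb1 rose by 0.71 (adjusted p = 0.017). With these 2 rises by adjusted p, the share was 1.8%, against 2.08% of all genes.

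**Figure D4:**
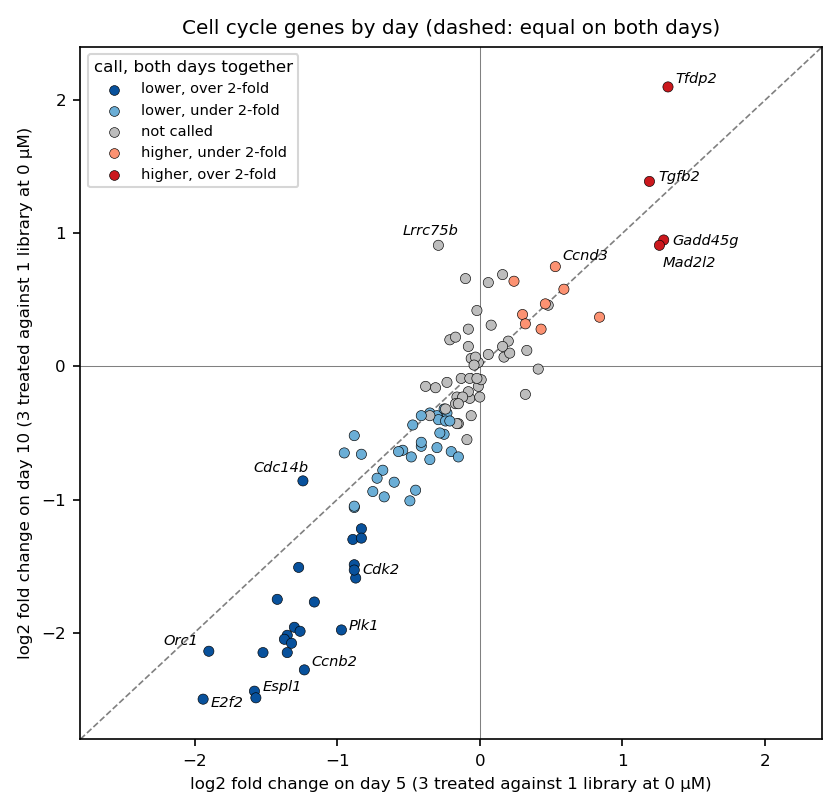
Log2 fold change of the 111 genes on day 5 (x axis) and on day 10 (y axis), each from 3 treated libraries and 1 library at 0 μM. Points are genes, coloured by the call over both days, and the dashed line marks equal values. Most genes that fell more than 2-fold lie below the line, with medians of -1.27 and -1.98, and Cdc14b lies above it.

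The treatment effect itself differed between days for 0 of the cell cycle genes by edgeR and for 0 by DESeq2 (12 of 112 at an unadjusted p under 0.05, against 8.23% of all genes), and for 0.0112% of all genes by edgeR. Each day has a single 0 μM library, which limits this test. No gene showed a trend over 100, 150 and 200 μM by edgeR (7 of 111 at an unadjusted p under 0.05, against 2.35% of all genes), against 0.006% of all genes by adjusted p. On day 5, 100 μM was the dose with the lowest level in 19 of the 23 genes that fell more than 2-fold, and on day 10 in 12 of them. The level of a dose on a given day comes from a single library, so these genes are not replicates of a dose. The same shares over all genes are not given here, and whether these counts differ from those of all genes was not tested. The share of counts on 13 mitochondrial genes was 4.53% at 0 μM on both days, 4.52% to 5.99% in treated cells on day 5 and 6.70% to 10.6% on day 10, and its part in these results was not tested.

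Genes outside the pathway annotation were compared from lists. Of 28 proliferation markers, all tested, 27 fell (26 of them more than 2-fold) and none rose, with a median log2 fold change of -1.45. Mki67, the usual marker of dividing cells, was at 771 and 903 CPM at 0 μM and between 174 and 417 CPM in treated cells, a log2 fold change of -1.60 ± 0.22 (adjusted p = 0.00030). The exception was Rrm1, a subunit of ribonucleotide reductase, at 0.27 ± 0.11 (adjusted p = 0.077), while its partner Rrm2 fell by 1.36 ± 0.20 (adjusted p = 0.00050). Of 11 regulators of the E2F and DREAM kind, which bind E2F motifs and the cell cycle homology region, 8 fell and 2 rose. Among them, Foxm1 fell by 1.36 ± 0.18 (adjusted p = 0.00023), Mybl2 by 1.74 ± 0.16 (adjusted p = 3.9e-05) and E2f8 by 1.85 ± 0.19 (adjusted p = 6.3e-05).

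Of 18 p53 targets, 16 were tested, 2 rose and 5 fell, beside 22.6% and 20.8% of all genes by adjusted p. The median log2 fold change of these targets was 0.02. Sesn1 and Trp53inp1 rose by 1.94 ± 0.19 (adjusted p = 5.3e-05) and 1.64 ± 0.16 (adjusted p = 4.8e-05), and Btg2, an antiproliferative gene, fell by 1.05 ± 0.15 (adjusted p = 0.00041). Of 9 osteoblast genes, 5 rose and 1 fell. The osteoblast factor Sp7 was at 6.03 and 5.03 CPM at 0 μM and between 53.1 and 134 CPM in treated cells. Runx2, Alpl, Ibsp and Sparc rose too. Spp1 fell by 0.56 ± 0.18 on the log2 scale (adjusted p = 0.032), and Col1a1, Col1a2 and Bglap were not called. The summed level ranged from 27.9 to 67.7 CPM for 6 macrophage genes, from 2.37 to 6.97 CPM for 6 adipocyte genes, from 1.99 to 9.19 CPM for 6 muscle genes and from 0.688 to 2.36 CPM for 5 endothelial genes, over all 10 libraries. Within them, Lyz2 rose and Cd14 fell among the macrophage genes, and Lep, Ckm, Des and Cdh5 rose among the others. Ptprc, which defines blood cells, was at most at 0.226 CPM. Of 5 marrow stroma genes, summing to 1260 to 2680 CPM, Pdgfra, Kitl and Lepr rose and Cxcl12 and Vcam1 fell. Over all libraries Pdgfra was at 412 to 1900 CPM, Cxcl12 at 176 to 545 CPM, Vcam1 at 151 to 380 CPM, Kitl at 36.3 to 262 CPM and Lepr at 0.657 to 3.67 CPM. The part of cell type makeup in the results was not tested.

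**Figure D5:**
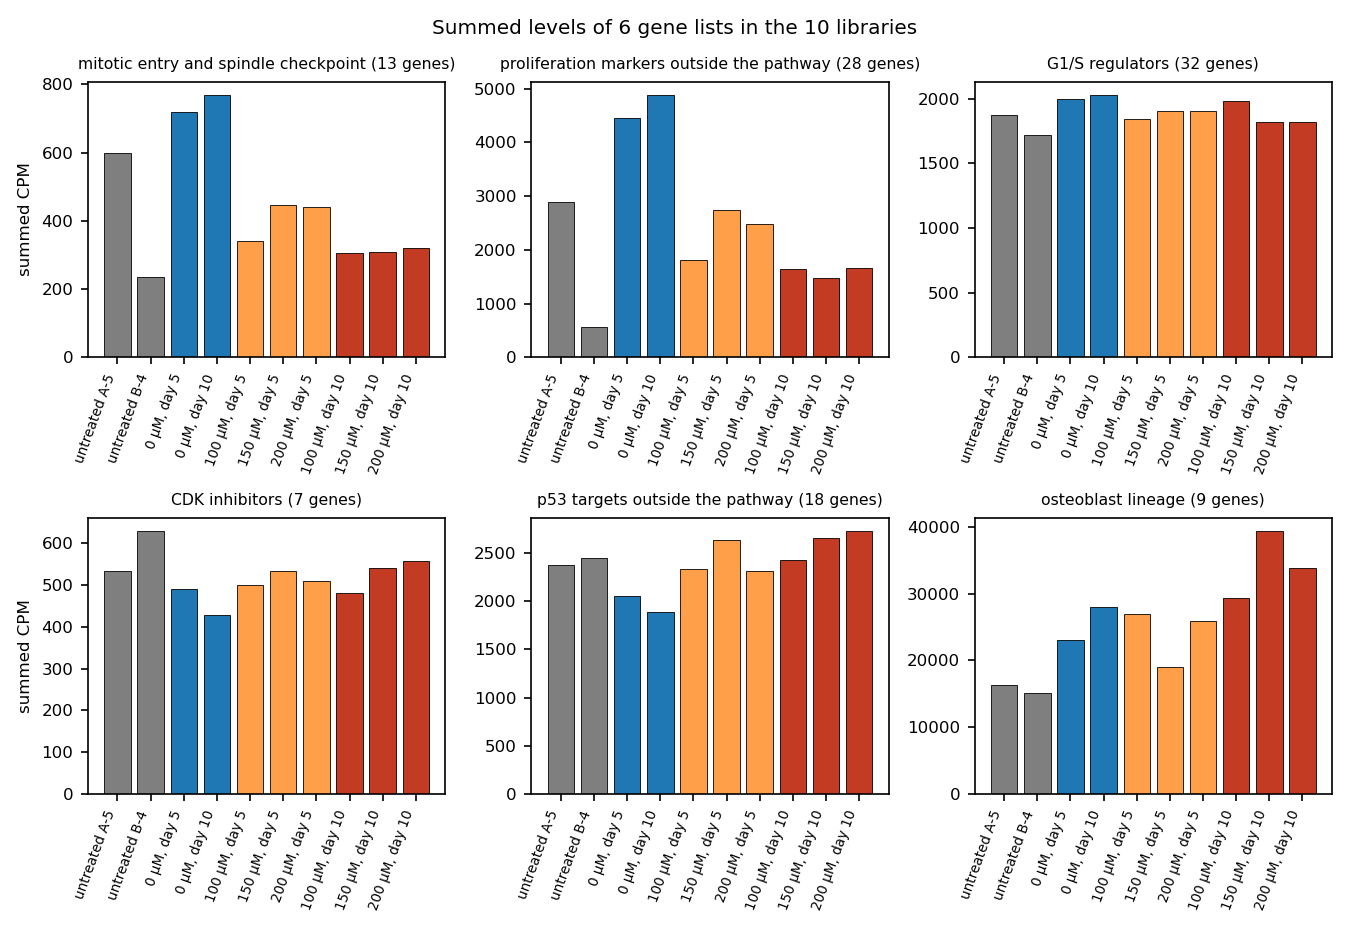
Summed CPM (y axis, from 0) of 6 gene lists in the 10 libraries (x axis), coloured by group: grey untreated, blue 0 μM, orange treated on day 5 and red treated on day 10. The genes of mitotic entry and the spindle checkpoint are at 718 and 770 CPM at 0 μM and at 305 to 447 CPM in treated cells, and the proliferation markers show the same order, with untreated B-4 lowest at 555 CPM.

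Some cell cycle genes share exon bases with another gene in the GENCODE M21 annotation, and the library kit does not mark strand. Exons of Ccna2 and Exosc9 overlapped by up to 428 bases, those of Cdc25c and Gm3550 by 623, Ccnd1 and LTO1 by 818, Ccnd3 and Bysl by 361, Cdk4 and Tspan31 by 641, Pkmyt1 and Paqr4 by 241, and Ccne2 and Ints8 by 474 bases. The largest overlap was that of Cdc23 and Kif20a, by 977 bases. Of these neighbours, Kif20a, Gm3550, Paqr4 and Ints8 fell, with log2 fold changes of -1.85, -1.46, -0.57 and -0.54, and the others were not called. Cdc23 itself was not called, at -0.04 ± 0.08 on the log2 scale (adjusted p = 0.74). Other overlaps are not listed here.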

How the data were processed

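Poly(A) RNA of 10 libraries was made with a TruSeq kit and sequenced on an Illumina instrument. The authors deposited 1 table with raw read counts and FPKM values per gene for each library. The submitters' processing notes name HISAT2 2.0.4 and GATK 3.2-2. The counting program, genome build and annotation are not given in the sources used here. The table's own edgeR comparisons of libraries were not used. The total of counts ran from 27108562 to 58218009 per library, so 3 counts equal 0.0502 to 0.118 CPM, and such floors cover counting error only. Per the labels, RNA was extracted with n = 3, but the table holds 1 library for each dose and day, and whether a library pools cultures or comes from 1 of them is not given in the sources used here.

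Counts were analysed with edgeR 4.0.16 (quasi-likelihood test, TMM, filterByExpr, day as a covariate) in R 4.3.3, with 6 treated libraries against 2 at 0 μM, over all genes of the table. Adjusted p-values are Benjamini-Hochberg values over the genes tested, which were 16794 for treated against 0 μM. The number was 16020 for day 10 against day 5, 17799 for the difference between days and 16664 for the dose trend. Day 10 was compared with day 5, and dose was tested as a trend per 50 μM, within the 6 treated libraries. A model of 4 groups gave values per day and their difference. CPM used TMM sizes over all 10 libraries. DESeq2 1.42.0 and limma 3.58.1 served as alternatives, and the scripts were tested on simulated data. FPKM served to compare levels between genes. Log2 ratios of single libraries used an offset of 0.5 CPM.

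The genes, lists and motifs were chosen with earlier results of these data known. Named were all cyclins, CDKs and CDK inhibitors, in each other role up to 4 genes with the smallest p among those called, and the 5 largest rises and falls. Other genes are named to complete a list and were chosen after their values were seen. Positions come from GENCODE M21 (GRCm38) and promoters from RefSeq (GRCm38.p6). Positions of motifs count bases before the start, from the first base of the match.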

Additional observations from a re-analysis of the deposited data

Results flagged for a closer look

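Among the 6 treated libraries, 2 of the named genes had a single value far from the others. Tfdp2 was at 189 CPM with 100 μM on day 10, while the other 5 treated libraries were between 78.8 and 107 CPM. Without that library its log2 fold change was 1.5 (edgeR, adjusted p = 5.7e-05). Chek1 was at 11.5 CPM with 150 μM on day 5, while the others were between 6.70 and 8.21 CPM. Without that library its log2 fold change was -1.49 (edgeR, adjusted p = 5.5e-05). The gap to the nearest value was 0.745 of the range for Tfdp2 and 0.681 for Chek1, past Dixon's limit, which chance passes in about 1 of 20 groups, and 46 genes were examined.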

How the results depend on the processing

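The direction of the median and the larger number of falls than rises held in every alternative that kept the 0 μM libraries as the sole reference: DESeq2, other scalings, other filters, no day term, Ensembl genes only, a depth class as a covariate and limma on log2(FPKM + 1), the last 2 of these chosen after seeing the data. Where the untreated libraries replaced those at 0 μM, 2 cell cycle genes rose and 1 fell by both limits, 6 rose and 10 fell by adjusted p, and the median was -0.02. In that setting 11 named genes changed sign and were not called. Cdkn1b, not called in either setting, went from 0.12 to -0.42, and the other 10 fell against 0 μM and here had log2 fold changes of 0.13 (Anapc7), 0.10 (Ccnb2), 0.71 (Ccne1), 0.06 (Cdc6), 0.10 (Cdk1), 0.13 (Cdk2), 0.00 (Cdk4), 0.12 (Cdkn2d), 0.04 (Chek1) and 0.52 (Lrrc75a). With the untreated libraries added to 0 μM, 2 rose and 3 fell by both limits and 20 fell by adjusted p. Shares over all genes are not given here for the settings with untreated libraries. Keeping genes with any count moved the median of all genes from 0.05 to 0.27, and that of the cell cycle genes remained -0.29. Tested against a 1.2-fold change with no other limit, 7 rose and 40 fell. Leaving out 1 library at a time gave 2 to 4 rises and 15 to 25 falls by both limits, and 6 to 14 rises and 32 to 56 falls by adjusted p. The fewest falls, 15 and 32, came without the 0 μM library of day 10, which also gave 6 rises by adjusted p, and the fewest rises by both limits, 2, came without the 0 μM library of day 5. Day 10 against day 5 gave 0 to 1 rises and 0 to 1 falls beyond 2-fold when a treated library was left out (no rise without 100, 200 μM of day 5 or 150, 200 μM of day 10, and a fall, of Espl1, without 100 μM of day 5), and 0 rises and 1 fall (Ccnb2) with library totals without TMM. The cause of these changes was not tested. With 2 libraries at 0 μM and 1 per dose and day, the precision of each value is limited by their number.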

Other observations

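The CDK inhibitors Cdkn2a and Cdkn2b lie next to each other on mouse chromosome 4 (89274471 to 89294653 and 89306299 to 89311039 in GRCm38), and both had 0 counts in all 10 libraries. Genes around them were looked up after these values were seen. Mtap, a gene of methionine salvage that most tissues express, lies beside Cdkn2a (89137122 to 89181081) and also had 0 counts in all 10 libraries. Farther out on that side, Klhl9 (88718292 to 88722465) had 2199 to 5298 counts per library, Hacd4 had 889 to 2672 and Focad had 748 to 2543. On the other side, Dmrta1 (89679436 to 89694772) had at most 7 counts and Elavl2 at most 5. A count of 0 allows 0.0502 to 0.118 CPM in these libraries.

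Of the genes that rose in treated cells, Tfdp2, Gadd45g and Mad2l2 were also higher in untreated B-4 (60.4, 52.1 and 26.4 CPM) than in untreated A-5 (25.4, 18.9 and 7.03 CPM), while Tgfb2 was at 8.61 CPM in B-4 and 8.32 CPM in A-5. With 1 library each, these differences have no test.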
